A study of Mus musculus with 2 samples.

Results

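The 36 genes described here carry out or govern DNA replication and S phase, the stretch of the cell cycle in which a cell copies its genome. They were chosen by name, as those rows of both count matrices whose gene symbol is on a list of 36 replication and S phase genes, and all 36 were found among the 32285 genes listed. Nuclei were isolated from snap-frozen mouse subventricular zone (SVZ), the germinal layer beside the lateral ventricle, and profiled by single-nucleus RNA sequencing. The groups were MIP, mice given a modeled intestinal perforation, and Control, labelled healthy; mice were assigned on postnatal day 5 and tissue was taken 48 h later, on day 7. Each group was 1 library. Strain, genotype, pooling and the number of animals are not stated in the labels. The MIP library held 165 Xist UMIs (unique molecular identifiers, each a counted transcript) and 47673 of Eif2s3y, Kdm5d, Uty and Ddx3y, which lie on the Y chromosome, and the Control library 262103 and 53, so the libraries differ in sex as well as in treatment and the effects of both cannot be told apart.

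In G1, origins of replication are licensed when Cdc6 and Cdt1 load the ring of Mcm2 to Mcm7 onto DNA. At S phase entry Cdc45, GINS and Mcm10 turn that ring into a moving helicase, and polymerases held by the Pcna clamp copy both strands while ribonucleotide reductase and thymidylate synthase supply nucleotides. Transcription of most of these genes is driven by E2F factors before and during S phase, whereas genes of mitosis peak later, in G2 and M. In the young SVZ the dividing cells are above all the transit-amplifying progenitors that make neuroblasts and glia, and oligodendrocyte precursors and microglia also divide in the first postnatal weeks.

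The MIP library held 100823376 UMIs in 12366 barcodes and the Control library 146730970 UMIs in 16964 barcodes, and 115 barcode sequences occurred in both. After filtering, 10940 MIP and 14579 Control nuclei were sorted into 53 clusters without using any of the 36 genes, and clusters were named from marker genes, so a name means resemblance only. Described are 237 MIP and 437 Control nuclei like neural progenitors, 708 and 800 like oligodendrocyte precursors, 351 and 298 like microglia, 1054 and 1146 like astroglia, and 686 and 1223 like neuroblasts. In both libraries at least 19 of the 21 progenitor markers and every marker of the other classes were detected in their own class. With 1 library per group no difference has a replicate check, no test was made, and each interval is an exact 95% interval that covers counting error only. MIP nuclei were shallower in each of these classes, with a median of 3313 UMIs in MIP and 4748 in Control progenitor-like nuclei and 2438.5 and 3572 in neuroblast-like nuclei. Scaling by the trimmed mean of all genes (TMM) instead of by the class total would shift the zero point of log2 ratios by -0.11 in precursor-like, -0.16 in microglia-like, -0.09 in astroglia-like and -0.13 in spiny projection neuron-like nuclei, and by less than that in the other classes, so ratios below are best read against these shifts.

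Expression of the replication genes was highest in progenitor-like nuclei in both libraries, where the summed level of MIP was close to that of Control, and it was lower in MIP in precursor-like, microglia-like and astroglia-like nuclei. The summed level of the 36 genes in progenitor-like nuclei was 3355 CPM (UMIs per 1000000 UMIs of the class) in MIP and 3288 in Control, a log2 ratio of MIP over Control of 0.03 (-0.03 to 0.09). With nuclei classed by marker score instead of by cluster, the progenitor-like ratio was -0.24 (-0.31 to -0.17). In precursor-like nuclei the summed level was 937 CPM in MIP and 1065 in Control, or -0.18 (-0.25 to -0.12) on the log2 scale. In microglia-like nuclei the level was 950 CPM in MIP and 1225 in Control, with MIP over Control at -0.37 (-0.49 to -0.24). In astroglia-like nuclei it was 278 CPM in MIP and 373 in Control, at -0.42 (-0.52 to -0.32). Neuroblast-like nuclei carried 660 CPM in MIP and 645 in Control, at 0.03 (-0.06 to 0.13). Against the TMM shift the ratio was -0.08 in precursor-like, -0.21 in microglia-like and -0.33 in astroglia-like nuclei. The differences between classes in these ratios were not tested.

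Spiny projection neurons, which no longer divide, are set beside the other classes for comparison. They are deeper and carry transcripts of their own, so their level is not that of free RNA alone: Pola1 stood at 140.5 CPM in MIP and 122 in Control spiny neuron-like nuclei, against 74.0 and 82.9 in astroglia-like nuclei. Their summed level was 287 CPM in MIP and 271 in Control, at a median depth of 8024 and 10844 UMIs. Pola1, the catalytic subunit of DNA polymerase alpha (chromosome X, 93304767 to 93632155 in mm10), made up 48.9% of those UMIs in MIP and 45.1% in Control. Astroglia-like nuclei were at 0.968 times the spiny neuron level in MIP and 1.37 times in Control, whereas progenitor-like nuclei were at 11.7 and 12.1 times. Of the 33 members with at least 20 UMIs in spiny neuron-like nuclei, 7 were at least 1.5 times lower in MIP and 5 at least 1.5 times higher, against 16.3% and 3.33% of the 18094 genes described there, and their median was -0.24 while the sum was at 0.08. Without Pola1, a variant added once the data had been seen, the ratio was -0.50 in astroglia-like, -0.36 in microglia-like, -0.18 in precursor-like, 0.04 in progenitor-like and 0.01 in neuroblast-like nuclei. The sum without Pola1 stood at 1.39 times the spiny neuron level in MIP and 1.94 times in Control astroglia-like nuclei. In progenitor-like nuclei it stood at 19.3 times in MIP and 18.6 times in Control.

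**Figure D1:**
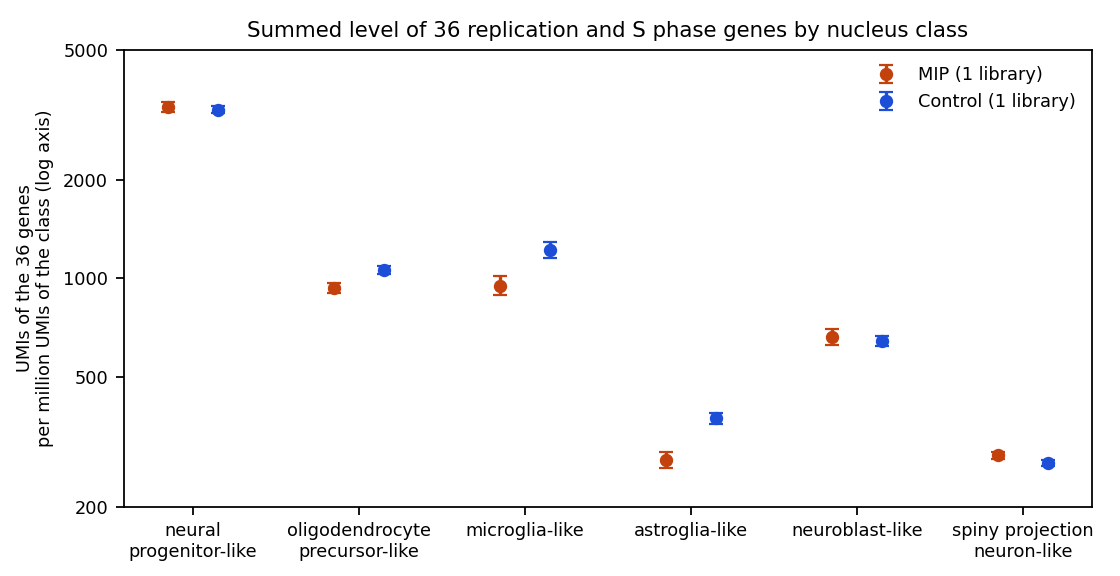
Summed level of the 36 genes (y axis, log scale, CPM of the class) in each nucleus class (x axis) for the MIP and the Control library, 1 library each; bars are exact 95% Poisson intervals. Progenitor-like nuclei stand at 3355 in MIP and 3288 in Control, and MIP lies below Control in precursor-like, microglia-like and astroglia-like nuclei.

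In MIP 36 of the 36 genes were at their highest in progenitor-like nuclei among the 5 classes, 29 of them beyond the counting interval against the next class. In Control 34 of 36 were, 25 of them beyond the interval, and the 2 exceptions, Mcm2 and Mcm3, were highest in microglia-like nuclei. This ranks whole classes, which differ in how many nuclei lay in the cycling clusters described further on. Such a cluster held 70.9% of MIP and 79.9% of Control progenitor-like nuclei, 9.60% and 16% of precursor-like and 5.41% and 14.4% of microglia-like nuclei. The other progenitor-like cluster stood at 1454 CPM in MIP and 1578 in Control for the 36 genes. Genes were not ranked within cycling nuclei alone. At a fixed depth of 2000 UMIs per nucleus, 82.7% of progenitor-like nuclei in MIP and 82.7% in Control held UMIs of at least 2 different genes of the 36. The same share was 27.5% in MIP and 34.2% in Control for precursor-like nuclei (log2 ratio -0.32, -0.59 to -0.04), and 26.8% and 41.1% for microglia-like nuclei (-0.62, -1.06 to -0.18). Astroglia-like nuclei were at 7.64% in MIP and 11.9% in Control (-0.64, -1.06 to -0.22), and spiny projection neuron-like nuclei at 8.69% and 9.52%. The astroglial share in MIP was thus no higher than that of the spiny neurons, while that in Control was slightly above it. Neuroblast-like nuclei were at 27.9% in MIP and 28.0% in Control. With nuclei classed by marker score instead of by cluster, the log2 ratio of shares in progenitor-like nuclei was -0.31 (-0.60 to -0.02).

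Thinning left out nuclei under 2000 UMIs: 17 in MIP and 3 in Control among progenitors, 28 and 2 among precursors, 75 and 18 among microglia, 72 and 8 among astroglia, 181 and 21 among neuroblasts and 36 and 3 among spiny neurons. Without thinning the shares were 86.1% in MIP and 90.2% in Control for progenitor-like, 45.5% and 57.3% for precursor-like, 27.9% and 51.0% for microglia-like, 20.8% and 39.97% for astroglia-like, 35.9% and 53.5% for neuroblast-like and 53.3% and 67.6% for spiny neuron-like nuclei. The gap between libraries in neuroblast-like nuclei appeared only in the unthinned counts.

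**Figure D2:**
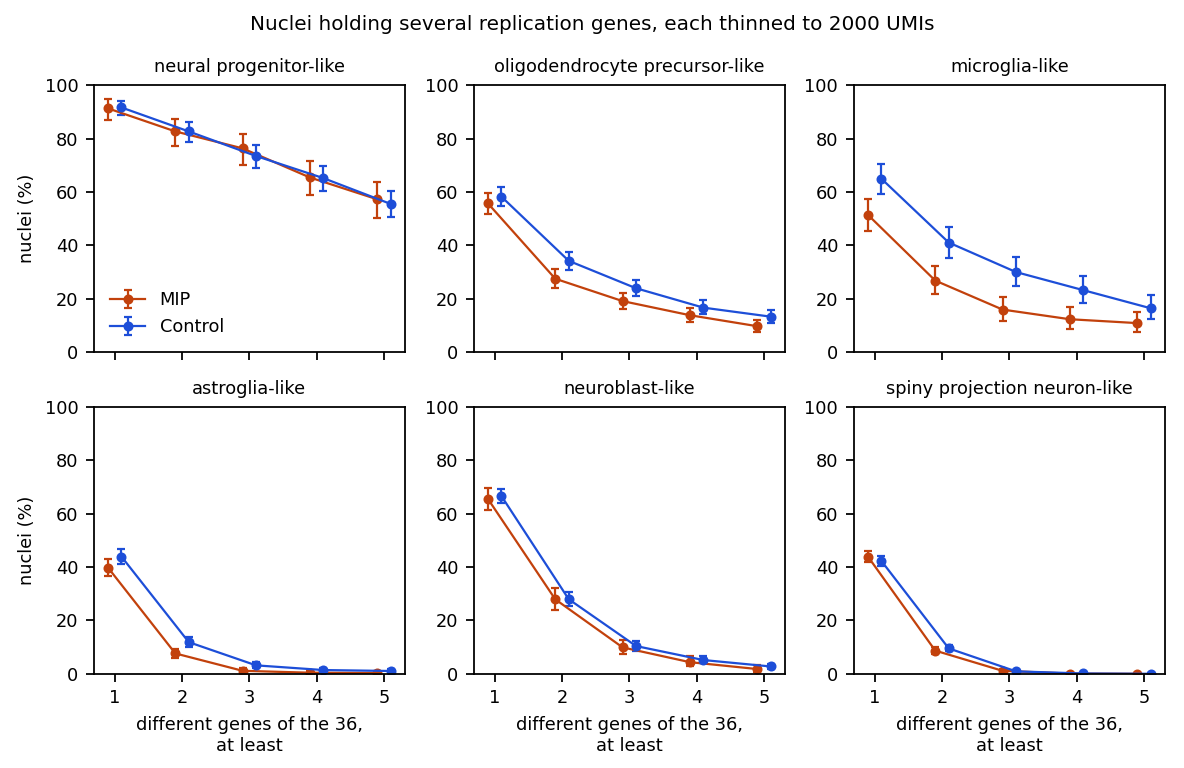
Share of nuclei (y axis, percent) with UMIs of at least 1 to 5 different genes of the 36 (x axis), each nucleus thinned to 2000 UMIs, for MIP and Control, 1 library each; bars are exact 95% binomial intervals. The curves overlie in progenitor-like and neuroblast-like nuclei, and MIP runs below Control in microglia-like nuclei, with 26.8% and 41.1% at 2 genes.

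The promoters of the members hold the letters of E2F sites more often than promoters in general. The RefSeq table of promoters on GRCm38.p6, 250 bases before to 50 after each start, had 28 of the 36 members; Mcm4, Gins1, Gins2, Pole, Dscc1, Pif1, Atad2 and Esco2 were the others. At least 1 of the E2F words TTTGGCGC, TTTCCCGC, TTTGCCGC or TTTCGCGC, on either strand and with overlaps counted, occurred in 14 of those 28 genes (50%), against 36% of 25 cell cycle control genes, 24.6% of 65 other replication genes, 9.86% of 71 mitosis genes and 2.6% of all 27025 genes in the table. By promoter, the share was 42.4% of the members' 33 promoters and 2.26% of all 32851 promoters of the same length. The cell cycle homology word TTTGAA, typical of mitotic promoters and also searched on both strands, showed the opposite order, with 14.3% of the members, 67.6% of the mitosis list and 20.2% of all genes. CCAAT on either strand occurred in 67.9%, 73.2% and 41.1%. A match shows letters only and not that a factor binds. The upstream stretches around the words of 5 members are printed 5′ to 3′ on the gene's strand, with each E2F word in capitals, because these members return in the results: the licensing genes Mcm5, Mcm6 and Cdc6 in progenitor-like nuclei and the chromatin genes Hells and Uhrf1 in astroglia-like nuclei. Only members with a word upstream of the start could be shown. Mcm2, Pcna, Brip1, Melk, E2f1 and Rrm2, which also return below, held no E2F word. The Uhrf1 stretch lies in 1 of its 2 promoters in the table. In Mcm5 and in the first site of Mcm6 a word and the reverse complement of another overlap.
Mcm5 (chr8:75109330-75109393, plus strand): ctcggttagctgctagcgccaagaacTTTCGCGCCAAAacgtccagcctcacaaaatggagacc
Mcm6 (chr1:128359719-128359841, minus strand): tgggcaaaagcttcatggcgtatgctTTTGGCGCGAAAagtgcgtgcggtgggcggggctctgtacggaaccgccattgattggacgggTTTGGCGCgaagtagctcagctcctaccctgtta
Cdc6 (chr11:98907987-98908046, plus strand): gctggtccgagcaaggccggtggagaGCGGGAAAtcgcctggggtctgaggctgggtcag
Hells (chr19:38930902-38930961, plus strand): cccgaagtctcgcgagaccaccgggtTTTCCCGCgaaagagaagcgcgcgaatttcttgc
Uhrf1 (chr17:56304102-56304161, plus strand): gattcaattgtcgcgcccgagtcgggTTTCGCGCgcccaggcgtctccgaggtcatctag

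Within progenitor-like nuclei the licensing genes as a sum were higher in MIP, and 4 of the 8 passed 1.5-fold. With nuclei classed by marker score instead of by cluster, the ratio of that sum was 0.02 (-0.17 to 0.21). The 8 licensing genes summed to 449 CPM in MIP and 333 in Control, a log2 ratio of 0.43 (0.25 to 0.61), or 1.35-fold. Mcm2, a subunit of the helicase ring, had 24 UMIs or 27.0 CPM in MIP and 33 UMIs or 14.3 CPM in Control, at 0.92 (0.10 to 1.72). Mcm4 and Mcm5, also subunits of the ring, stood at 43.9 CPM in MIP and 27.7 in Control and at 37.1 and 22.5, with ratios of 0.66 (0.05 to 1.26) and 0.72 (0.05 to 1.38). Cdc6, the loader ATPase, had 30.4 CPM in MIP and 19.5 in Control, at 0.64 with an interval that includes 0 (-0.10 to 1.36). Cdt1, its partner in loading, had 68 UMIs in MIP and 120 in Control, 76.5 and 51.9 CPM, at 0.56 (0.11 to 0.999). The other ring subunits Mcm6, Mcm7 and Mcm3 had ratios of 0.35, 0.14 and 0.27, each with an interval that includes 0. All 8 licensing genes thus had a ratio above 0 in progenitor-like nuclei.

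Of the 36 genes, 4 were at least 1.5 times higher in MIP progenitor-like nuclei (Mcm2, Mcm4, Mcm5 and Cdc6), or 11.1%, against 7.59% of the 12110 genes with at least 20 UMIs over both libraries. At least 1.5 times lower was 1 gene, Fen1, the flap nuclease of the lagging strand, with 9 UMIs in MIP and 43 in Control (-0.88, -2.10 to 0.18), against 13.9% of all genes. These shares are near the background or below it, and the median ratio of the 36 genes was 0.08 against -0.02 over all genes. The interval lay above 0 in 4 members (background 9.15%) and below 0 in 2 (background 9.72%). Those below were Tyms, thymidylate synthase, with 61.9 CPM in MIP and 89.2 in Control (-0.53, -0.98 to -0.09), and Melk, a cell cycle kinase, with 74.2 and 99.99 (-0.43, -0.85 to -0.03).

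The steps after licensing gave role sums whose intervals all include 0 in progenitor-like nuclei. Lagging strand maturation, by Fen1, Lig1 and Pif1, stood at 164 CPM in MIP and 167 in Control (-0.03). The helicase activators Mcm10, Cdc45, Gins1 and Gins2 together stood at 161 CPM in MIP and 168 in Control (-0.06). The polymerases, clamp and clamp loaders stood at 1069 in MIP and 1054 in Control (0.02), with the leading strand polymerase Pole at 0.22, the primase Prim1 at -0.09, the clamp Pcna at -0.12, the clamp loaders Rfc3 and Dscc1 at 0.24 and 0.31 and the Pcna partner Pclaf at -0.07. Nucleotide supply was at 261 in MIP and 296 in Control (-0.18), with the reductase subunits Rrm1 and Rrm2 at 0.05 and -0.25 and the dUTPase Dut at -0.01. The chromatin genes Hells, a remodeller, Uhrf1, which guides maintenance methylation, and Atad2, a bromodomain ATPase, summed to 548 in MIP and 509 in Control (0.11). The fork genes Clspn (checkpoint mediator), Brip1 (helicase of interstrand crosslink repair) and Esco2 (cohesin acetyltransferase) summed to 437 in MIP and 465 in Control (-0.09). The regulators E2f1, an activator, E2f7 and E2f8, repressors of the same targets, and Melk summed to 265 in MIP and 296 in Control (-0.16).

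Which nuclei count as progenitors bears on the licensing result. When nuclei were put in classes by their highest marker score instead of by cluster, the class held 408 MIP and 848 Control nuclei, of which 127 and 275 were also in the clusters used here. There Mcm4 was at -0.08 and Mcm5 at -0.08, and the summed level of all 36 genes was at -0.24. Under the other 5 alternatives the licensing ratio lay between 0.33 and 0.45.

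In oligodendrocyte precursor-like nuclei, whose cells give rise to myelinating oligodendrocytes, the sums of the lagging strand, fork and regulator genes were lower in MIP, each with 1 member past 1.5-fold (Pif1, Esco2 and Melk), and the intervals of the licensing, activation and chromatin sums include 0. Lagging strand maturation stood at 45.8 CPM in MIP and 67.6 in Control (-0.56, -0.86 to -0.27); without Pif1, left out after its value was seen, it stood at 42.3 and 48.5 (-0.20, -0.52 to 0.12). The regulators were at 42.0 in MIP and 62.3 in Control (-0.57, -0.88 to -0.27), the fork genes at 79.9 and 110.1 (-0.46, -0.69 to -0.24) and nucleotide supply at 91.6 and 112 (-0.29, -0.51 to -0.08). The polymerases, clamp and clamp loaders stood at 326 in MIP and 359 in Control (-0.14, -0.25 to -0.03). Licensing was at 149 in MIP and 158 in Control (-0.09, -0.26 to 0.08), helicase activation at 55.6 and 48.5 (0.20, -0.10 to 0.49) and chromatin at 147 and 147 (0.01). Of the 36 genes 5 were at least 1.5 times lower, 13.9% against 15.7% of the 13770 genes described in this class, and 0 were higher, against 4.18%. The count is near the background. With nuclei thinned to 2000 UMIs it was 10 of 34, 29.4% against 15.8% of all genes. All 5 had intervals below 0: Pif1, Rrm2, Dscc1, Melk and Esco2.

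Pif1, a helicase that unwinds flaps and G-quadruplexes (chromosome 9, 65587160 to 65595967), had the lowest ratio in precursor-like nuclei. It had 11 UMIs in MIP and 87 in Control, 3.48 and 19.2 CPM, a log2 ratio of -2.46 (-3.52 to -1.55), and 1.13% of MIP and 5.13% of Control nuclei held a UMI of it, beside 2.03% of MIP and 4.74% of Control spiny neuron-like nuclei. In progenitor-like nuclei the same gene was at 65.2 CPM in MIP and 65.4 in Control (-0.00, -0.47 to 0.44), and in microglia-like nuclei at 11.4 and 14.0. In spiny neuron-like nuclei it stood at 2.31 in MIP and 4.16 in Control, and in precursor-like nuclei nearly all its UMIs lay in the cycling cluster described further on. Whether the ratio differs between classes was not tested.

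The other precursor values were nearer to each other. Rrm2, the limiting subunit of ribonucleotide reductase, had 19 UMIs in MIP and 53 in Control (-0.96, -1.80 to -0.18), and Melk 48 and 121 (-0.81, -1.33 to -0.32). Esco2 had 68 in MIP and 154 in Control (-0.66, -1.09 to -0.24), and Dscc1 19 and 48 (-0.82, -1.67 to -0.02). Mcm7, Pcna, Dut, Brip1 and Pola1 also had intervals below 0, with ratios between -0.58 and -0.20, and Rfc3 had one above 0, at 0.39 (0.06 to 0.71). That makes 10 of 36 with an interval below 0, or 27.8%, against 19.9% of all genes, and 1 above, against 11.0%. The summed astroglia markers in precursor-like nuclei were at 3502 CPM in MIP and 2847 in Control, and those of neural progenitors at 564 and 679. Their part in the result was not tested.

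In microglia-like nuclei the regulators stood apart. E2f1, E2f7, E2f8 and Melk summed to 44.6 CPM in MIP and 105 in Control, or -1.23 (-1.78 to -0.71) on the log2 scale. E2f1 had 17 UMIs in MIP and 42 in Control (-1.25, -2.16 to -0.41), Melk 10 and 27 (-1.38, -2.59 to -0.29), E2f8 10 and 20 (-0.95, -2.20 to 0.22) and E2f7 6 and 16 (-1.36, -3.00 to 0.07). The fork genes were at 94.5 CPM in MIP and 151 in Control (-0.68, -1.07 to -0.29), with Brip1 at -0.76 (-1.42 to -0.13) and Esco2 at -0.82 (-1.60 to -0.07). Part of these UMIs lay in the cycling cluster described further on, of 19 MIP and 43 Control nuclei. Esco2 had all of its UMIs there, 24 in MIP and 44 in Control, at 0.41 (-0.38 to 1.16). Within it E2f1 was at -1.18, E2f7 at -0.63, Melk at -0.59, Brip1 at -0.24 and E2f8 at -0.16. Each of these intervals includes 0. How far the cluster's share of the class bears on the class ratios was not tested. The chromatin genes were at 201 in MIP and 209.9 in Control (-0.06), and licensing at 159.9 and 195 (-0.29, -0.60 to 0.03).

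Of 32 genes with at least 20 UMIs in microglia-like nuclei, 7 were at least 1.5 times lower, 21.9% against 22.1% of the 10723 genes described, and 0 were higher, against 12.3%. The number of lower genes is thus that of the background, it was 14 of 35 without doublet removal (against 18.4% of all genes), and the median of the 32 was -0.42 against -0.11 over all genes. Besides the 6 fork and regulator genes, the lower ones held Mcm3, with 15 UMIs in MIP and 26 in Control (-0.74, -1.76 to 0.23). Cdc6, Cdc45, Fen1 and Rrm2 had fewer than 20 UMIs. The class rests on different clusters in the libraries, since the cluster that held 332 MIP nuclei had 15 Control nuclei and the one that held 240 Control nuclei had 0 from MIP. The 36 genes stood at 703 CPM in those 332 MIP nuclei and at 912 in those 240 Control nuclei, which are different clusters. Within the cluster of the 332 MIP nuclei, the 15 Control nuclei stood at 416 CPM from 23 UMIs. The ratio there was 0.76 (0.16 to 1.43), opposite in sign to that of the class. Markers of border macrophages (9 genes, 2 of them at 0 in both libraries) stood at 799.5 CPM in MIP and 412 in Control, and those of neuroblasts (20 genes) at 1645 and 2494. Their part in the result was not tested.

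In astroglia-like nuclei the summed level of all 36 genes was near that of the spiny neurons, and most genes had a ratio below 0. Without Pola1 the sum stood at 1.39 times the spiny neuron level in MIP and 1.94 times in Control. Of 27 genes with at least 20 UMIs, 12 were at least 1.5 times lower, 44.4% against 15.4% of the 14702 genes described, and 1, Mcm2, was higher (18 UMIs in MIP and 17 in Control, 0.73, -0.31 to 1.78), against 4.82%. The median was -0.55 against -0.12 over all genes. With nuclei thinned to 2000 UMIs 5 of 18 genes were lower (27.8% against 14.8%), and 22 of 33 when cell cycle lists were kept out of clustering (66.7% against 15.6%). Pcna, the clamp, had 40 UMIs in MIP and 137 in Control, 9.64 and 21.1 CPM (-1.13, -1.68 to -0.61). The spiny neurons had 9.98 and 12.8 CPM of it, so the MIP astroglial level was near that of the spiny neurons and the Control level above it. Uhrf1 (chromosome 17, 56303321 to 56323486) had 4 UMIs in MIP and 29 in Control (-2.21, -4.18 to -0.70), and Brip1 5 and 36 (-2.20, -3.91 to -0.85). Gins2, a GINS subunit, was at -1.22 (-2.33 to -0.23), Clspn at -1.12 (-2.30 to -0.07), E2f1 at -0.91 (-1.83 to -0.06), Rrm1 at -0.82 (-1.60 to -0.10), Hells at -0.81 (-1.41 to -0.24) and Lig1, the ligase of the lagging strand, at -0.63 (-1.23 to -0.05).

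The interval lay below 0 in 10 of the 27, or 37.0%, against 22% of all genes, and above 0 in 0, against 12.6%. The other lower astroglial genes, Mcm5, Fen1 and Pclaf, had intervals that reach 0 or beyond it. Gins2, Lig1, Fen1 and Pclaf overlap a gene on the other strand, and whether counting used strand is not given in the sources used here. Cdc6, E2f7 and E2f8 had 0 UMIs in MIP and 11, 15 and 4 in Control; with 3 UMIs in the class taken as the floor, Cdc6 and E2f7 were at least 2.34-fold and 3.19-fold lower in MIP. By role, the fork genes stood at 4.58 CPM in MIP and 13.1 in Control (-1.51, -2.32 to -0.78), and helicase activation at 15.9 and 18.9 (-0.25, -0.71 to 0.19). Markers of neuroblasts in astroglia-like nuclei summed to 3461 CPM in MIP and 5276 in Control, those of neural progenitors to 1639 and 1693, and those of microglia to 736 and 469. Median depth was 3636 UMIs in MIP and 5087 in Control. The part of these in the result was not tested.

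In neuroblast-like nuclei, the migrating offspring of the progenitors, the sum was close in both libraries while the clusters differed in sign. The larger cluster was at 677 CPM in MIP and 747 in Control (-0.14, -0.25 to -0.04), and the smaller, 8.75% of MIP and 21.995% of Control nuclei of the class, at 525 and 406 (0.37, 0.07 to 0.67), so the class mix differed. In the class, 5 of 27 genes were at least 1.5 times lower, 18.5% against 15.4% of the 13233 genes described, and 1 was higher, 3.70% against 7.11%. With cell cycle lists kept out of clustering, 1 of 30 was lower (3.33% against 15.1% of all genes) and 7 were higher (23.3% against 7.68%). The median was -0.12 and the sum of all 36 genes at 0.03, on opposite sides of 0. The 8 licensing genes were at 128 CPM in MIP and 116 in Control (0.15, -0.07 to 0.37). Mcm5 (chromosome 8, 75109569 to 75128439) had 2 UMIs in MIP and 37 in Control, 1.09 and 7.43 CPM, a log2 ratio of -2.77 (-5.87 to -0.82), while its partners Mcm4, Mcm6 and Mcm7 had 0.29, 0.40 and 0.19. Brip1 (chromosome 11, 86058138 to 86201193) had 12 UMIs in MIP and 8 in Control, 6.53 and 1.61 CPM, at 2.02 (0.61 to 3.52). When classes came from marker scores, Mcm5 in neuroblast-like nuclei was at 0.03 and Brip1 at 0.10 (-0.59 to 0.76). The other lower genes, Pclaf, Uhrf1, Clspn and E2f1, had intervals that include 0, and E2f8 had 0 UMIs in both libraries.

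**Figure D3:**
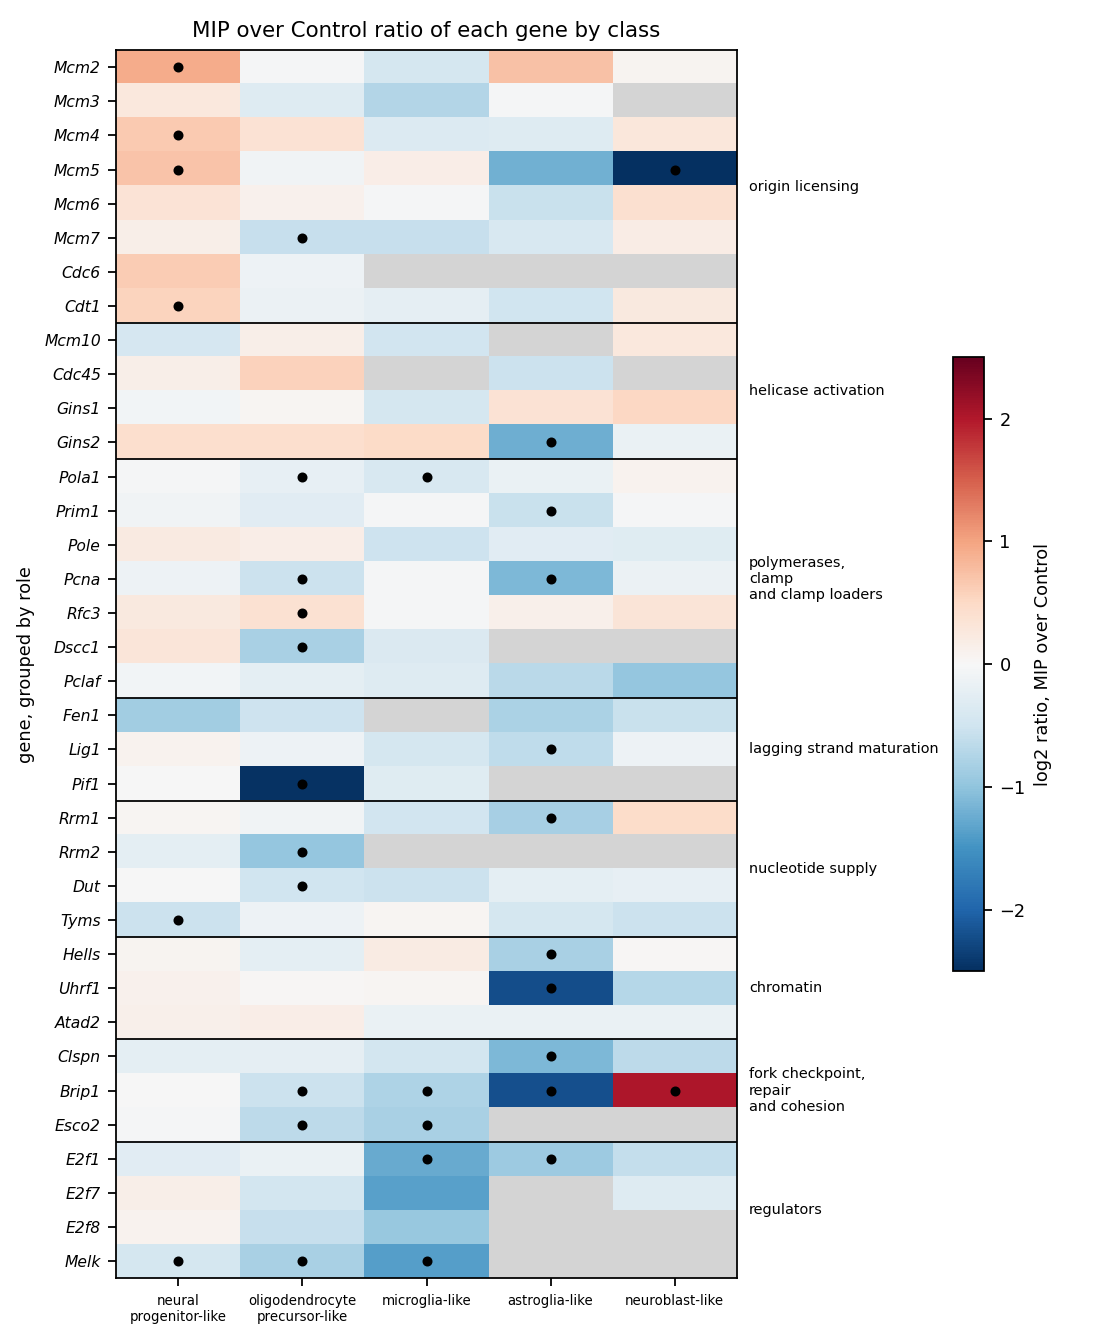
Log2 ratio of MIP over Control (colour) for each of the 36 genes (rows, grouped by role) in 5 nucleus classes (columns), 1 library per group; grey marks fewer than 20 UMIs over both libraries and a black dot an exact 95% counting interval that excludes 0; the colour scale is capped, so the darkest cells lie at or beyond its ends. Licensing genes are above 0 in progenitor-like nuclei, and the lower rows are mostly below 0 in precursor-like, microglia-like and astroglia-like nuclei.

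Genes of mitosis, counted the same way, were lower in MIP in most of their number in precursor-like and microglia-like nuclei but not in progenitor-like nuclei. Differences from the 36 genes were not tested. A list of 84 mitosis genes summed to 10710.4 CPM in MIP and 11936 in Control progenitor-like nuclei (-0.16, -0.19 to -0.12), with 7 of 84 genes lower (8.33% against 13.9%) and 0 higher. In precursor-like nuclei it stood at 1965 in MIP and 3122 in Control (-0.67, -0.71 to -0.63), with 58 of 84 genes at least 1.5 times lower (69.0% against 15.7%) and 0 higher. In microglia-like nuclei it was at 2573 in MIP and 4369 in Control (-0.76, -0.84 to -0.69), with 56 of 75 genes lower (74.7% against 22.1%). Cenpf, a kinetochore protein, had 63 UMIs in MIP and 294 in Control in precursor-like nuclei (-1.70), and Ube2c, which helps the anaphase-promoting complex, had 12 and 88 in progenitor-like nuclei (-1.497). In astroglia-like nuclei the mitosis sum was at -0.18 with a median of -0.59, and 27 of 54 genes were lower (against 15.4% of all genes). In neuroblast-like nuclei the sum was at -0.04, with 15 of 47 lower (31.9% against 15.4%) and 7 higher.

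A list of 80 other replication genes had sums close to Control, while more of its genes than the background were lower in microglia-like and astroglia-like nuclei. Its sum was at 0.07 in progenitor-like (0.02 to 0.11), -0.04 in precursor-like, -0.06 in microglia-like, -0.06 in astroglia-like and 0.09 in neuroblast-like nuclei. In microglia-like nuclei 22 of 67 genes were lower (32.8% against 22.1%) and 4 higher, with a median of -0.30. In astroglia-like nuclei 18 of 74 were lower (24.3% against 15.4%) and 1 higher, with a median of -0.19. In progenitor-like nuclei 1 of 78 was lower (1.28% against 13.9%) and 2 higher, in precursor-like 9 of 79 (11.4% against 15.7%) and 3, and in neuroblast-like nuclei 8 of 74 (10.8% against 15.4%) and 7. Orc2, a subunit of the origin recognition complex, had 169.8 CPM in MIP and 114 in Control progenitor-like nuclei (0.58, 0.28 to 0.87). Dna2, a nuclease of flap processing, had 211 UMIs in MIP and 69 in Control microglia-like nuclei (1.67, 1.27 to 2.08), and Gmnn, the inhibitor of Cdt1, 6 and 28 (-2.17, -3.73 to -0.87).

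Of 37 cell cycle control genes, Ccnd3, the G1 cyclin D3, was higher in MIP microglia-like nuclei. It had 982 UMIs in MIP and 165 in Control (2.63, 2.39 to 2.87). The list's sum there was at 0.47 while its median over 28 genes was -0.52. Of these genes 12 were lower (42.9% against 22.1% of all genes) and 2 higher (7.14% against 12.3%). In astroglia-like nuclei Ccnd3 was at 107 CPM in MIP and 27.5 in Control (1.96, 1.71 to 2.22). The sum was at 0.21 and the median at -0.10, with 3 of 33 higher (9.09% against 4.82%) and 5 lower (15.2% against 15.4%). In progenitor-like nuclei 2 of 35 were higher (5.71% against 7.59%) and 3 lower (8.57% against 13.9%). In precursor-like nuclei 0 of 36 were higher (against 4.18%) and 5 lower (13.9% against 15.7%). In neuroblast-like nuclei 4 of 27 were higher (14.8% against 7.11%) and 2 lower (7.41% against 15.4%).

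**Figure D4:**
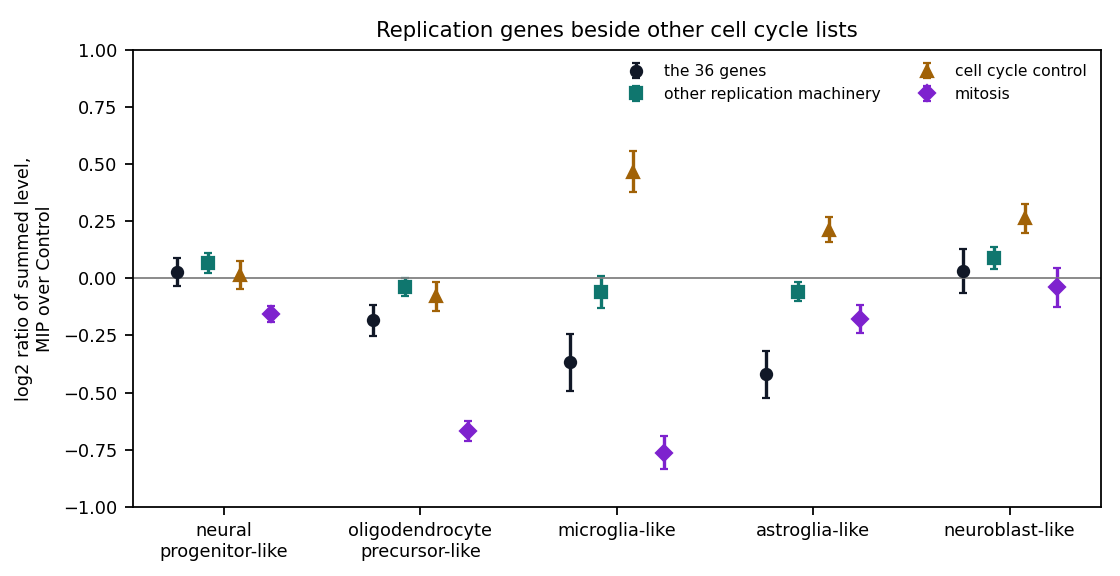
Log2 ratio of the summed level, MIP over Control (y axis), for the 36 genes and 3 other lists in each nucleus class (x axis), 1 library per group; bars are exact 95% counting intervals. The mitosis list lies at -0.67 in precursor-like and -0.76 in microglia-like nuclei, below the 36 genes at -0.18 and -0.37.

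In the clusters richest in mitosis transcripts, called cycling here, the sum of the replication genes was higher in MIP. There was 1 such cluster each of progenitor-like, precursor-like and microglia-like nuclei, with the mitosis list at 14117 CPM in MIP and 14216 in Control, 11037 and 12161, and 22532 and 20183. In the progenitor-like one, of 168 MIP and 349 Control nuclei, the 36 genes summed to 4041 CPM in MIP and 3659 in Control (0.14, 0.08 to 0.21). In the precursor-like one, of 68 and 128 nuclei, they summed to 3522 in MIP and 2793 in Control (0.33, 0.24 to 0.43), although the whole class was at -0.18. In the microglia-like one, of 19 and 43 nuclei, they summed to 3985 in MIP and 2843 in Control (0.49, 0.27 to 0.70), although the whole class was at -0.37. The other precursor-like cluster, of 640 MIP and 672 Control nuclei, was at 575 in MIP and 630 in Control (-0.13, -0.22 to -0.04). The cycling clusters gave 9.60% of precursor-like nuclei in MIP and 16% in Control and 5.41% and 14.4% of microglia-like nuclei. Their borders were drawn with mitosis genes, which differed between the libraries, so these shares are denominators and not a comparison. The levels within the cycling clusters depend on the same borders. With cell cycle lists kept out of clustering, all precursor-like nuclei, 708 MIP and 801 Control, fell in a single cluster. The level of the cycling precursor-like cluster thus has no counterpart under that setting.

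A split by 3 mitotic transcripts, Mki67, Top2a and Cenpf, at 2000 UMIs per nucleus gives the levels on either side of that line. These transcripts themselves differed between the libraries and were not kept out of clustering, so the split is a description and no second line of evidence. Progenitor-like nuclei with a UMI of any of them held the 36 genes at 4011 CPM in MIP and 3601 in Control (0.16, 0.05 to 0.26), and those without at 2536 and 2744 (-0.11, -0.29 to 0.06). Precursor-like nuclei with such a UMI stood at 2396 in MIP and 2208 in Control (0.12, -0.05 to 0.28), and those without at 577 and 646 (-0.16, -0.31 to -0.01). In microglia-like nuclei the values were 3250.0 in MIP and 2639 in Control (0.30, 0.05 to 0.55) with, and 640.5 and 824 (-0.36, -0.59 to -0.14) without. Nuclei with a mitotic UMI made up 62.3% of MIP and 71.7% of Control progenitor-like nuclei, 14.9% and 21.7% of precursor-like nuclei, and 12.3% and 21.8% of microglia-like nuclei. In spiny neuron-like nuclei they made up 2.54% of MIP and 3.20% of Control nuclei, cells that do not divide. The ratio for the share was -0.20 (-0.50 to 0.09) in progenitor-like, -0.55 (-0.91 to -0.18) in precursor-like and -0.82 (-1.47 to -0.19) in microglia-like nuclei.

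Single members followed the sum to different degrees in the cycling precursor-like cluster. Mcm6 had 51 UMIs in MIP and 69 in Control there, 131 and 75.6 CPM (0.80, 0.24 to 1.34), and Uhrf1 36 and 51, 92.6 and 55.9 CPM (0.73, 0.07 to 1.37). Pif1 had 11 in MIP and 86 in Control, 28.3 and 94.2 CPM (-1.73, -2.79 to -0.82), and Mcm5 6 and 35 (-1.31, -2.85 to -0.05). Nearly every Pif1 UMI of the class, 11 of 11 in MIP and 86 of 87 in Control, thus lay in this cluster, and its level within it was lower in MIP while the sum of the 36 genes was higher. Mcm6, Uhrf1, Pif1 and Mcm5 were picked after their values were seen. Rrm2, Dscc1, Melk and Esco2, lower in the class, stood in this cluster at 0.01, -0.06, -0.10 and 0.05. Their intervals include 0. Melk had 45 UMIs in MIP and 113 in Control there, and Esco2 65 and 147. The cluster's part in their class ratios was not tested.

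**Figure D5:**
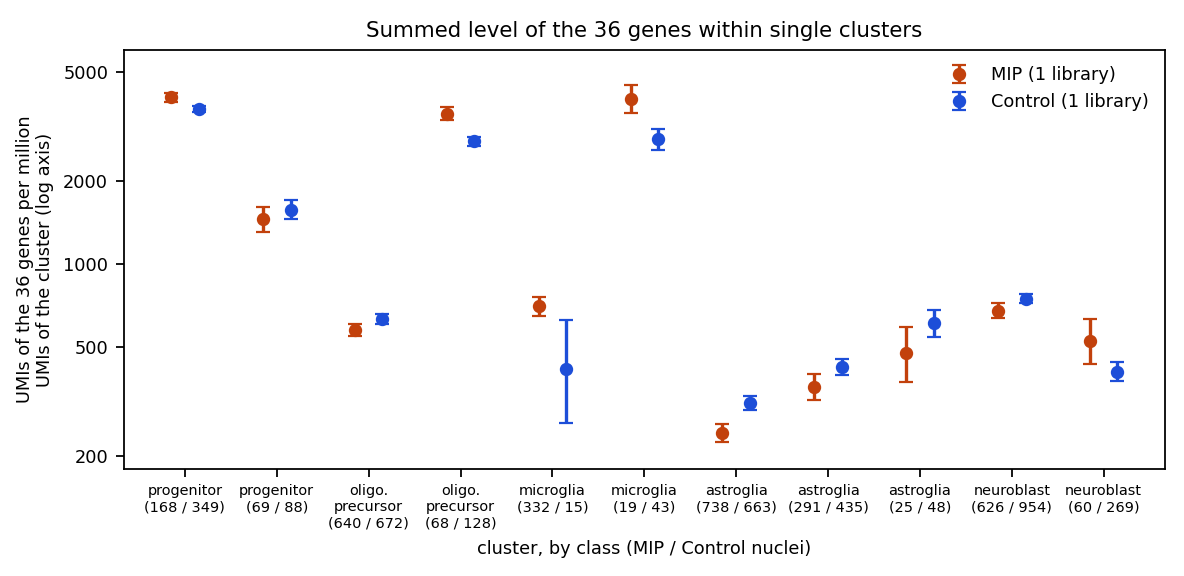
Summed level of the 36 genes (y axis, log scale, in CPM of the cluster) in each cluster with at least 15 nuclei in both libraries (x axis, with MIP and Control nuclei in brackets); points are 1 library each and bars exact 95% Poisson intervals. In the 3 clusters with the highest levels MIP lies above Control, at 4041 and 3659, 3522 and 2793, and 3985 and 2843.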

How the data were processed

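Single-nucleus RNA was counted in 1 MIP and 1 Control library, grouped by the labels. Deposited are unnormalized UMI counts, one matrix of genes by barcodes for each library; Cell Ranger 5.0.1 and mm10 are named in the submitters' processing notes. Neither the annotation nor the strand setting is given in the sources used here. Whether reads from the antisense partner of a gene were counted was not checked. No annotated same-strand gene overlaps a member in GENCODE M21, matched by identifier for 36 of 36, but Mcm7, Cdc45, Gins2, Pole, Dscc1, Pclaf, Fen1, Lig1, E2f7 and E2f8 overlap a gene on the other strand.

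Barcodes under 500 genes (204 MIP, 0 Control) or over 5% mitochondrial UMIs (48 and 114) were left out. Scrublet's own threshold marked 0 doublets in either library, so the top-scoring 0.8% per 1000 barcodes was removed (1174 and 2271), a larger share of the larger library. Counts per 10000 were log-transformed, and 3000 variable genes without the 36 members, 40 components and 20 neighbours gave Leiden clusters at resolution 1. A cluster took a name from at least 3 markers among its top 60 genes or, failing that, from at least 50% of a marker list at 2-fold in 5% of nuclei. Clusters of unusual depth, or with more markers of another class among the top 10 genes, stayed unnamed. This rule was set after clusters were seen.

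UMIs were summed per class and library and compared as log2 ratios with exact Poisson-ratio intervals; shares have exact Clopper-Pearson intervals, and a ratio of shares treats both counts as Poisson. All 36 members are named. Ratios are described from 20 UMIs over both libraries, and a gene counts as lower or higher at 1.5-fold. In each class the 3 genes of each other list with the interval bound farthest from a ratio of 1 could be named. Members and lists were chosen with earlier results of these data known. Scripts were tested on simulated counts. Alternatives were other doublet, clustering, class, scaling, depth, filter and fold choices, and, added after seeing the data, omission of Pola1 or Pif1. Tools were Python 3.11.15, Scanpy 1.11.5, leidenalg 0.10.2, igraph 0.11.9, scikit-learn 1.9.0, SciPy 1.17.1, NumPy 2.4.6, pandas 2.3.3 and Matplotlib 3.10.9.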

Additional observations from a re-analysis of the deposited data

Results flagged for a closer look

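For 2 of the 36 genes the direction of the MIP over Control ratio differed between classes, each with a counting interval that excludes 0, and the difference between classes was not tested. By the same measure 275 of 14118 genes described in at least 2 classes, or 1.95%, had opposite directions, against 5.56% of the 36. Mcm5 was at 0.72 in progenitor-like nuclei (33 UMIs in MIP and 52 in Control) and at -2.77 in neuroblast-like nuclei (2 and 37). Brip1 was at -0.76 in microglia-like nuclei (34 UMIs in MIP and 60 in Control) and at -2.20 in astroglia-like nuclei (5 and 36), and at 2.02 in neuroblast-like nuclei (12 and 8). The neuroblast and astroglial values rest on few UMIs. With classes from marker scores, Mcm5 was at -0.08 in progenitor-like and 0.03 in neuroblast-like nuclei and Brip1 at 0.10 in neuroblast-like nuclei, each with an interval that includes 0.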

How the results depend on the processing

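Every difference rests on 1 library per group, and counting intervals leave out the spread between animals. No paired analysis was possible because each group has 1 library. Neuroblast-like nuclei without doublet removal were not run, since a cluster of 32 MIP and 990 Control nuclei failed the naming rule. Of 34 alternatives to the summed level, 31 kept its sign, and of 136 for single genes, 133 did. For the share of nuclei 27 of 34 kept the sign. Signs aside, 12 of the 34 sums and 31 of 78 counts of lower or higher genes were marked as moved. The cause of each shift was not tested.

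With classes from marker scores, Mcm4 and Mcm5 turned to -0.081 and -0.076 in progenitor-like nuclei and Mcm5 to 0.028 in neuroblast-like nuclei. The summed ratio was then -0.24 in progenitor-like, -0.10 in precursor-like, -0.15 in microglia-like, -0.57 in astroglia-like and -0.070 in neuroblast-like nuclei. Lower genes numbered 5 of 36 in progenitor-like (13.9% against 18.9% of all genes) and 4 of 34 in microglia-like nuclei (11.8% against 28.0%). In astroglia-like nuclei 22 of 33 were lower (66.7% against 17.4%). Higher genes numbered 0 in progenitor-like (against 5.88%), 1 in microglia-like (2.94% against 13.9%) and 1 in precursor-like nuclei (2.78% against 3.88%). The ratio of shares in progenitor-like nuclei was -0.31 (-0.60 to -0.02). Without doublet removal the summed ratio was 0.10 in progenitor-like, -0.069 in precursor-like and -0.27 in astroglia-like nuclei, the polymerase group of precursor-like nuclei turned to 0.0078, and 14 genes were lower in microglia-like nuclei.

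With cell cycle lists kept out of clustering, 2 genes were higher in progenitor-like nuclei (5.56% against 8.3% of all genes). The summed ratio was -0.57 in astroglia-like nuclei, with 22 lower (66.7% against 15.6%). It was 0.23 in neuroblast-like nuclei, with 1 lower (3.33% against 15.1%) and 7 higher (23.3% against 7.68%). With the members used in clustering, 3 were lower and 2 higher in neuroblast-like nuclei. With TMM scaling the summed ratio was -0.079 in precursor-like and -0.21 in microglia-like nuclei. In each 1 gene was higher (2.78% against 6.54% and 3.12% against 18.0%). With nuclei thinned to 2000 UMIs, 2 genes were lower in progenitor-like nuclei (5.56% against 14.9%). In precursor-like nuclei 10 were lower (29.4% against 15.8%) and 1 higher (2.94% against 5.83%). In microglia-like nuclei 1 was higher (4.55% against 14.6%). In astroglia-like nuclei 5 were lower (27.8% against 14.8%) and 0 higher (against 6.03%). With a minimum of 1 UMI, 19 were lower (52.8% against 27.4%) and 2 higher (5.56% against 14.4%) in astroglia-like nuclei. In neuroblast-like nuclei 9 were then lower (25.7% against 30.4%). At a fold of 2, progenitor-like nuclei had 0 lower (against 4.98%) and 0 higher (against 1.55%). Precursor-like nuclei had 1 lower (2.78% against 4.66%) and microglia-like 3 lower (9.38% against 8.88%). Astroglia-like nuclei had 6 lower (22.2% against 5.08%) and 0 higher (against 1.22%), and neuroblast-like 1 lower (3.7% against 6.36%). The astroglial ratio of shares was -0.14 at 1 gene and -1.498 at 3, and the unthinned one of neuroblast-like nuclei was -0.58.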
